A study of Mus musculus with 20 samples.

Results

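The genes described here are those of glucose uptake, glycolysis, lactate handling, the glycerol phosphate shuttle and glycogen metabolism, taken as a list of 36 genes by name. A probe set that the platform table gives to that gene alone was found for 31 of the 36, of 8220 genes so represented on the array. Each gene is represented by its probe set with the highest mean signal over the 20 arrays. Of the 31, 27 were bright enough to be tested. The probe sets of Slc2a1, Pfkp, Aldoc and Slc16a1 were too dim, and Gpi1, Eno1, Slc16a3, Pfkfb1 and Gapdh had no probe set of their own by this rule. Of the 27 tested genes, 26 had a group median of at least 200 signal units in all 4 groups, so that their passing the filter did not rest on 1 group. The exception was Slc2a3.

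The arrays carried RNA of skeletal muscle from mice aged 8 weeks. The 4 groups of 5 one-colour Affymetrix arrays were leg muscle of control mice, leg muscle of mdx mice, extraocular muscle of control mice and extraocular muscle of mdx mice. Controls are called wild type in the series title. The mdx mouse carries a nonsense mutation in Dmd, which encodes the membrane-linked protein dystrophin, and is a model of Duchenne muscular dystrophy that lacks the full-length protein. The strain, the sex and the number of animals behind an array are not given in the sources used here, so the p-values cover only the variation among these arrays, part of which may be technical. The leg tissue of the controls is labelled as gastrocnemius and soleus and that of the mdx mice only as leg muscle, and the control and mdx arrays carry different description texts. Muscle sampled, handling and genotype therefore cannot be told apart in the leg comparison, nor handling and genotype in the extraocular comparison. Both limits enter the difference of the mdx effects between the muscles. The label of the mdx leg tissue also bears on the comparison of the muscles in mdx mice. In whole muscle, fewer cells of a type and less RNA per cell cannot be told apart either.

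Glucose enters a resting muscle fibre through GLUT1 and, after insulin or contraction, through GLUT4, and is trapped by hexokinase as glucose 6-phosphate. From there it is either broken down by glycolysis to pyruvate, which becomes lactate or enters the mitochondria, or is stored as glycogen, which phosphorylase breaks down again when the fibre works. Fast fibres of limb muscle hold much glycolytic enzyme and glycogen, while extraocular muscle contracts almost without rest, is rich in mitochondria and is largely spared in dystrophin deficiency.

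Signals below are linear array intensities, scaled so that the trimmed mean of each array was 500. Differences are in log2 units and a gene is said to have risen, fallen or differed only where the limma test over 7204 probe sets gave an adjusted p under 0.05. A signal of one probe set says nothing of the level of another gene. The share of probe sets at 200 or more lay between 47.2% and 52.0% on the 20 arrays, and Dmd gave 37.3 to 126 on the mdx leg arrays against 100 to 212 on the control leg arrays, and 102 to 175 against 204 to 325 in extraocular muscle. The Dmd ranges overlapped in leg muscle and not in extraocular muscle, and a nonsense mutation can leave the transcript in place. Fast fibre genes were bright in every group: Tnnt3, fast troponin T, had group means from 14466 to 19490. The fast troponin C gene Tnnc2 lay under 50 on every array, although muscle makes this protein; the maker later withdrew some probe sets of this early array, and no list of them was used here.

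2 leg control arrays stood apart from the others. Leg control 1 correlated least of all arrays with the rest of its group (mean r = 0.892) and held the highest signal of the leg controls for 12 of the 27 tested genes. On leg control 4 the slow fibre myosin genes Myl2 and Myh7 were at 45.2 and 445, against 8608 to 20216 and 4040 to 14239 on the other 4, and the summed signal of 11 epithelial and gland markers was 11336 against 1821 to 3226. Calls of the 27 tested genes that rest on the leg controls were therefore also fitted without these 2 arrays. The marker lists and the other gene lists below were fitted with all arrays only.

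In mdx leg muscle 11 of the 27 tested genes fell and 0 rose, where 7.15% of all probe sets tested fell and 10.7% rose, 17.9% in all. The genes that fell were spread over the pathway: the transporter Slc2a4, the hexokinase Hk2, 3 of the 5 glycogen synthesis genes (Ugp2, Gyg and Gys1), both glycerol phosphate dehydrogenases (Gpd1 and Gpd2), Pfkm of upper glycolysis, Ldhb of lactate handling, Phkg1 of glycogen breakdown, and Fbp2, while 0 of the 5 genes tested from Pgk1 to Pkm passed. The median difference of the 27 genes was -0.43, against -0.06 over all probe sets, and 25 of 27 differences were negative, against 56.5% of all probe sets. For 8 genes all 5 mdx arrays lay below all 5 control arrays, which held for 5.19% of all probe sets, and for 0 genes did they all lie above (8.38% of probe sets). Leaving out the array leg mdx 3 left 7 calls, without Pfkm, Ldhb, Gpd1 and Fbp2; without leg control 1 and 4 there were 9, of which 8 were among the 11, with Pfkm, Ugp2 and Fbp2 lost and Phka1 gained.

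**Figure D1:**
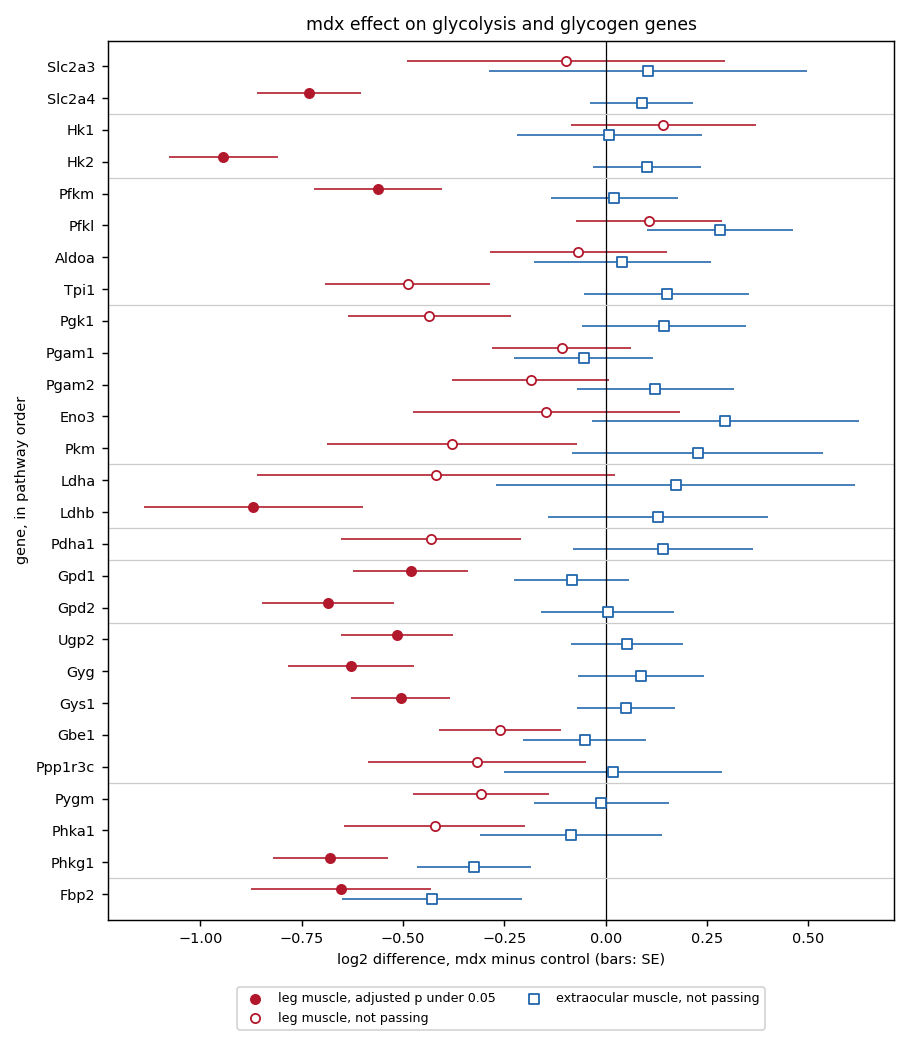
Log2 difference between mdx and control arrays for each of the 27 tested genes in pathway order, in leg muscle (circles) and extraocular muscle (squares), 5 arrays a group. Bars are standard errors from limma, filled symbols have an adjusted p under 0.05 and open symbols do not. In leg muscle 11 genes are filled, from -0.94 for Hk2 to -0.48 for Gpd1, and in extraocular muscle 0 are.

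Hk2 encodes hexokinase 2, the insulin-responsive hexokinase of muscle. Its signal was 5027, 4080, 4039, 5992 and 5196 on the 5 control leg arrays and 2881, 2672, 2027, 2557 and 2461 on the 5 mdx leg arrays. Every mdx leg array lay below every control leg array, and the spread among the mdx arrays was small (2520 ± 317, SD, n = 5, against 4867 ± 822). The difference was -0.94 (SE 0.13), a 1.92-fold decrease (adjusted p = 2.17e-05). In extraocular muscle the values were 5665, 6395, 6551, 5149 and 7229 in controls and 6079, 6619, 7254, 5683 and 7583 in mdx, and the 2 ranges overlapped almost fully. The difference there was 0.10, with a 95% interval from -0.18 to 0.38.

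Slc2a4 encodes GLUT4, the transporter that insulin and contraction bring to the fibre surface. Its signal was 6223, 4815, 5235, 6598 and 5749 in control leg muscle and 4132, 3615, 2936, 3505 and 3068 in mdx leg muscle. The groups did not overlap, and the difference was -0.73 (SE 0.13), a 1.66-fold decrease (adjusted p = 0.000247). In extraocular muscle it was 4350, 5056, 5099, 4748 and 6228 in controls and 6162, 5073, 5482, 4511 and 5842 in mdx, which overlapped. There the difference was 0.09 (95% interval -0.18 to 0.35).

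The other genes of uptake and phosphorylation did not pass in either muscle. Hk1, the hexokinase present in most tissues, read 6819, 4518, 5807, 5546 and 5010 in control leg muscle and 3430, 7350, 4647, 8611 and 8077 in mdx leg muscle. The mdx arrays held both the lowest and the highest values of the 10, and the difference was 0.14 (95% interval -0.33 to 0.62, adjusted p = 0.727). Slc2a3, the high-affinity transporter GLUT3, was dim, at 190 ± 70.6 and 182 ± 90.5. Slc2a1, encoding GLUT1, was too dim to test at 57.1 ± 7.08 in control and 38.3 ± 3.45 in mdx leg muscle.

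The hexokinase pair, 1 of which fell and 1 of which did not pass, and the lactate dehydrogenase pair described further on are shown with the sequence before their start sites. Each sequence gives the 250 bases before the most upstream start in the RefSeq promoter table (build GRCm38.p6), 5′ to 3′ on the strand of the gene. Capitals mark the letters ACGTG on either strand, the core of sites read by HIF-1 and, as CACGTG, by USF and MYC proteins. The windows lie at chr6:82774455-82774704 on the minus strand for Hk2, chr10:62379909-62380158 on the minus strand for Hk1, chr6:142507958-142508207 on the minus strand for Ldhb and chr7:46845554-46845803 on the plus strand for Ldha.
Hk2: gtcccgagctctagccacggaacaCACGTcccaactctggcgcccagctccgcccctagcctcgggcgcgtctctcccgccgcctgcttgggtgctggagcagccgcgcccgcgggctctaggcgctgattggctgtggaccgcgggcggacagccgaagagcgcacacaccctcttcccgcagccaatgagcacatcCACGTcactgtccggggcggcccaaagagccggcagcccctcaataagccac
Hk1: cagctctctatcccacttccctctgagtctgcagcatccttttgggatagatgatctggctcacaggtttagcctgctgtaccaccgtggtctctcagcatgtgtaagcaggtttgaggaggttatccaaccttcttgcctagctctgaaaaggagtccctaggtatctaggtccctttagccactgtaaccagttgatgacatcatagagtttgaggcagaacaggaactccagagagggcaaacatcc
Ldhb: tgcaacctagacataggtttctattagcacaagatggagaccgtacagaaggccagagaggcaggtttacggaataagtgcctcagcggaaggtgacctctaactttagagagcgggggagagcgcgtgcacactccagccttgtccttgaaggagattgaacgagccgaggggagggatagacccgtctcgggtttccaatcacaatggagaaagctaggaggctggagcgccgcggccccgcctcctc
Ldha: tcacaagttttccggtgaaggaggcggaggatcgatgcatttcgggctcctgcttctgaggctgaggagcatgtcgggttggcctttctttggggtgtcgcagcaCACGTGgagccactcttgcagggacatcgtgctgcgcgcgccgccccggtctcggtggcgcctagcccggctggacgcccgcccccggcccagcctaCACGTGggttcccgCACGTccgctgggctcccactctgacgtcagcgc

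Hk2 holds the letters at 2 places, beginning 226 and 52 bases before the start, and Hk1 at 0. Ldha holds them at 3 places, beginning 145, 48 and 34 bases before the start, the first 2 of them as CACGTG, which reads ACGTG on both strands, and Ldhb at 0. Over the 28 listed genes with a window in the table, 14 held ACGTG in at least 1 window, against 18.5% of 27025 genes. Of the genes that fell in mdx leg muscle it was 5 of 9, and of those tested that did not pass 7 of 15. CACGTG was in 5 of the 28, against 6.86% of genes. Counted by window, ACGTG was in 16 of 39 windows of the listed genes, against 16.6% of 32851 windows. The share of G and C was 69.6% in the Hk2 window and 67.2% in that of Ldha, against 49.6% for Hk1 and 56.4% for Ldhb. The part of base content in the matches was not tested. These are matches of letters in a window, and no binding was measured.

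Pfkm, the muscle subunit of phosphofructokinase, which commits sugar to glycolysis, read 18171, 14184, 13172, 13634 and 14659 in control leg muscle and 11251, 10912, 7358, 9328 and 11496 in mdx leg muscle. The groups did not overlap and the fall was 1.48-fold (log2 difference -0.56, SE 0.16, adjusted p = 0.0150). It no longer passed without leg mdx 3 (adjusted p = 0.0542) or without leg control 1 and 4 (0.0679). The liver subunit Pfkl read 654 ± 107 in control and 720 ± 204 in mdx leg muscle (log2 difference 0.11, 95% interval -0.27 to 0.48), one of the 2 positive differences beside that of Hk1. The platelet subunit Pfkp was too dim to test, at 134, 23.0, 21.7, 120 and 37.2 in control and 122, 170, 183, 196 and 191 in mdx leg muscle. Its mdx values lay mostly above the control values, but both are near the lower end of the scale.

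The enzymes of the middle and lower pathway did not pass. Aldoa, the muscle aldolase, read 802 ± 73.3 in control and 790 ± 206 in mdx leg muscle (95% interval of the log2 difference -0.52 to 0.39). Tpi1, triosephosphate isomerase, differed by -0.49 (95% interval -0.91 to -0.07, adjusted p = 0.107) and Pgk1, phosphoglycerate kinase, by -0.43 (-0.85 to -0.02, adjusted p = 0.151). Pgam2 and Eno3, the muscle phosphoglycerate mutase and enolase, differed by -0.19 and -0.15, the wider mutase Pgam1 by -0.11, and the pyruvate kinase gene Pkm by -0.38. These intervals leave room for a fall of the size seen for Pfkm in every one of these genes except Aldoa and Pgam1, whose lower bounds were -0.52 and -0.46.

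The spread between arrays was wide for these enzymes, as the plot of single arrays shows. Eno3, for instance, read 22904, 5943, 5212, 13303 and 10210 on leg control arrays 1 to 5 and 13471, 7680, 5117, 7361 and 14853 on leg mdx arrays 1 to 5. Leg control 1 was highest of the controls for Tpi1, Pgk1, Pgam2, Eno3, Pkm and Ldha, and leg mdx 3 was lowest of its group for 14 of the 27 tested genes. The Gapdh control probe sets of the array, which were not used for testing, spread in the same way: the one for the middle of the transcript read 23530, 447, 9560, 1757 and 1037 on the leg controls. The summed signal of 12 fast fibre markers was also highest on leg control 1, at 164356 against 62715 to 101805. The ratio of the highest to the lowest array exceeded 2-fold for 9 of the 27 genes in leg controls, 10 in leg mdx, 6 in extraocular controls and 3 in extraocular mdx.

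**Figure D2:**
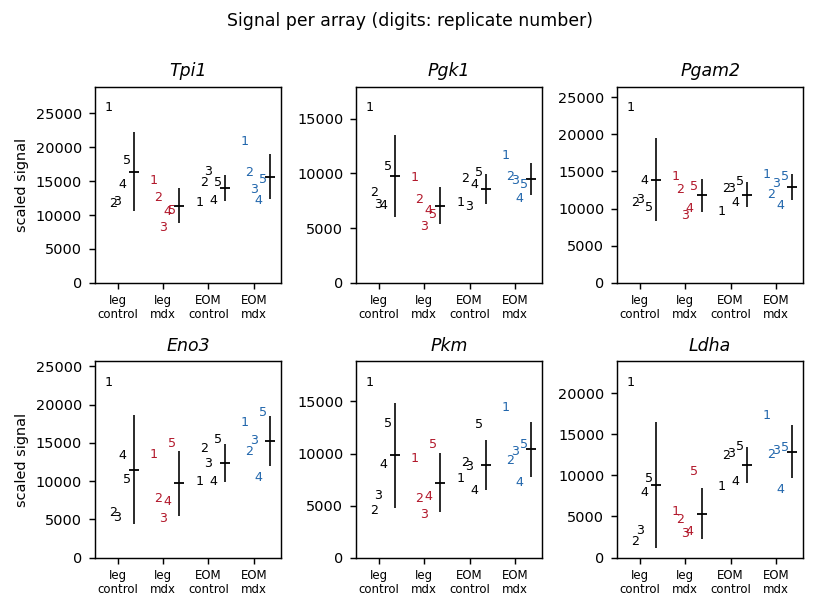
Scaled signal of 6 enzymes from triosephosphate isomerase to lactate dehydrogenase on every array, with the digit giving the replicate number, EOM meaning extraocular muscle and the cross and bar the mean and SD of 5 arrays. Leg control 1 lies above the other leg controls in all 6 panels, with Ldha at 21288 against 1999 to 9616.

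At the end of glycolysis the 2 lactate dehydrogenase subunits were measured with very different precision. Ldhb, the heart-type subunit that prevails in oxidative fibres, read 2362, 1399, 1223, 659 and 1438 in control leg muscle and 1018, 621, 520, 799 and 718 in mdx leg muscle. The ranges overlapped through leg control 4, the array low in slow fibre genes. The fall was 1.83-fold (log2 difference -0.87, SE 0.27, adjusted p = 0.0281), and it was -0.91 (adjusted p = 0.0154) without leg control 1 and 4. When arrays were left out one at a time the call was lost in 6 of 20 fits, those without leg control 1, 2 or 5 or leg mdx 2, 3 or 5, where the adjusted p reached 0.091. Ldha, the muscle-type subunit, read 21288, 1999, 3292, 7920 and 9616 against 5557, 4612, 2882, 3226 and 10493. Its leg controls spanned 10.7-fold, so that a difference of -0.42 had a 95% interval from -1.34 to 0.50. Slc16a1, the lactate transporter MCT1, was too dim to test (153 ± 45.1 against 110 ± 19.2). Pdha1, a subunit of pyruvate dehydrogenase at the door of the mitochondria, differed by -0.43 without passing (95% interval -0.89 to 0.03, adjusted p = 0.205).

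Both enzymes of the glycerol phosphate shuttle, which carries electrons from cytosolic NADH to the mitochondria, fell. Gpd2, the mitochondrial enzyme, read 1483, 1163, 1291, 1035 and 1138 in control and 837, 937, 566, 938 and 587 in mdx leg muscle, without overlap. It fell 1.61-fold (log2 difference -0.69, SE 0.16, adjusted p = 0.0046), though its probe set is of a kind whose probes are shared within a sequence family. Gpd1, the cytosolic enzyme, read 4594, 5811, 7855, 4953 and 4990 against 4514, 4329, 3397, 3850 and 3828. Here the lowest control and the highest mdx array nearly touched, and the fall was 1.40-fold (log2 difference -0.48, SE 0.14, adjusted p = 0.0205). That call ended without leg control 3 (adjusted p = 0.0664) and without leg mdx 3.

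Glycogen synthesis runs from Ugp2, which makes UDP-glucose, through the self-glucosylating primer glycogenin (Gyg) and muscle glycogen synthase (Gys1) to the branching enzyme (Gbe1). The first 3 fell in mdx leg muscle. Gyg read 2455, 2478, 2090, 2707 and 2328 in control and 1580, 1807, 1435, 1628 and 1364 in mdx leg muscle, and Gys1 read 7990, 6871, 7882, 8393 and 6791 against 6345, 5123, 5843, 5582 and 4039. In both genes all mdx arrays lay below all controls. Gyg fell 1.55-fold (log2 difference -0.63, SE 0.16, adjusted p = 0.00617) and Gys1 1.42-fold (-0.51, SE 0.12, adjusted p = 0.00502). A second, family-shared Gyg probe set read 835 ± 775 against 548 ± 187 and did not pass, and with the mean of both the gene was not called (adjusted p = 0.131). Ugp2 read 4420, 3108, 3368, 3134 and 3495 against 2657, 2742, 2640, 2380 and 1854, also without overlap. It fell 1.43-fold (log2 difference -0.52, SE 0.14, adjusted p = 0.0111), with an adjusted p of 0.0528 without leg control 1 and 4. Gbe1 (log2 difference -0.26, adjusted p = 0.266) and Ppp1r3c, a subunit that brings protein phosphatase 1 to glycogen (-0.32, adjusted p = 0.474), did not pass.

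Of the 3 genes of glycogen breakdown only Phkg1, the catalytic subunit of muscle phosphorylase kinase, fell. It read 2629, 3742, 2975, 3236 and 3566 in control and 2843, 2272, 1771, 1950 and 1438 in mdx leg muscle, with leg mdx 1 inside the control range. The fall was 1.60-fold (log2 difference -0.68, SE 0.14, adjusted p = 0.00145) and passed in all 20 fits that left out 1 array. Phka1, the regulatory subunit of the same kinase, differed by -0.42 (95% interval -0.89 to 0.04), and Pygm, muscle phosphorylase itself, by -0.31 (-0.65 to 0.04). Fbp2, the muscle fructose bisphosphatase that runs against phosphofructokinase, read 1062, 1242, 934, 1400 and 1053 against 929, 945, 687, 713 and 438. It fell 1.57-fold (log2 difference -0.65, SE 0.22) close to the threshold (adjusted p = 0.0447) and lost the call in 9 of 20 such fits, the adjusted p reaching 0.147 when leg mdx 5 was dropped.

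**Figure D3:**
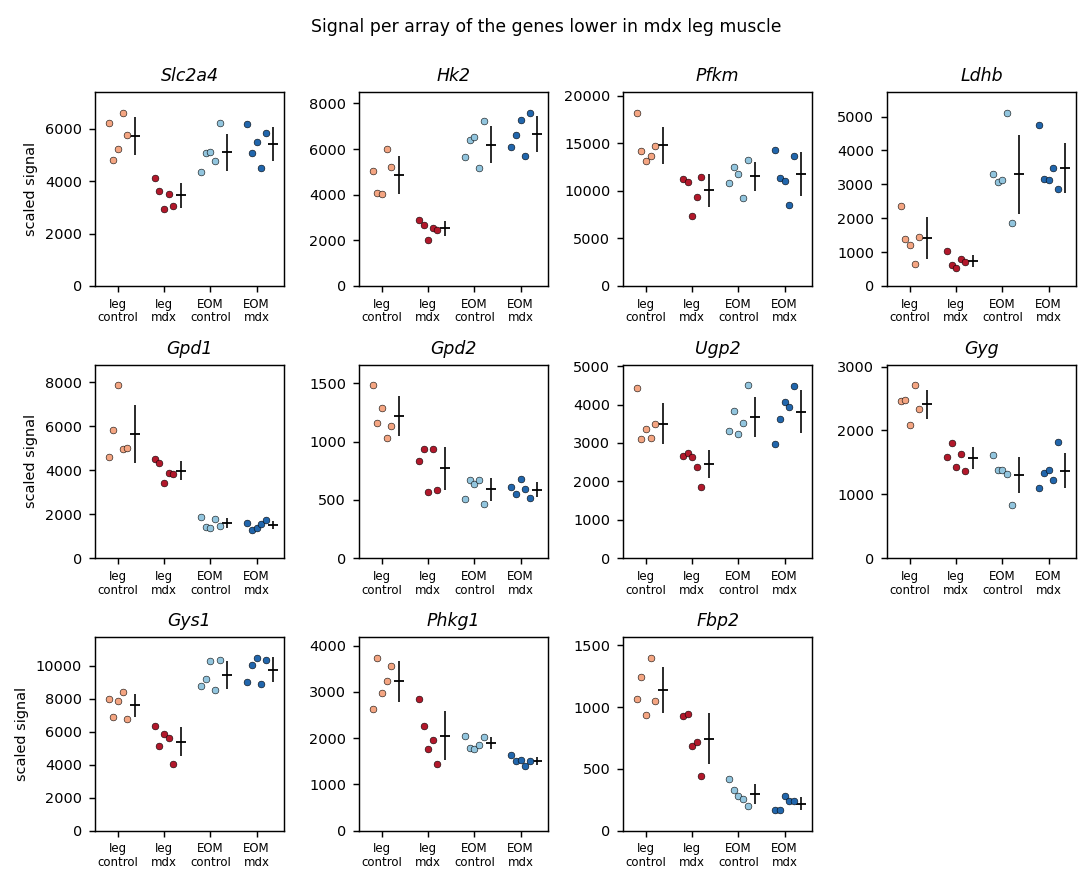
Scaled signal on every array (dots) with mean and SD (cross and bar, n = 5) for the 11 genes that fell in mdx leg muscle, with EOM meaning extraocular muscle. Hk2 in mdx leg muscle lies between 2027 and 2881, below every other array, while the 2 extraocular groups overlap in 10 of the 11 panels and are apart for Phkg1.

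Markers of macrophages, of fibroblasts and matrix, and of regenerating fibres rose in the same leg comparison. All 16 tested macrophage and myeloid markers rose, and the summed signal of the 20 listed genes was 5540 to 7788 on control and 45058 to 59332 on mdx leg arrays. Of 13 fibroblast and matrix markers 12 rose (summed signal 28137 to 38900 against 67386 to 74838), as did 6 of 10 genes of regenerating fibres (15898 to 18694 against 22446 to 31745). Of 10 tested fast fibre markers 0 passed, with a median difference of -0.32 (summed signal of 12 genes 62715 to 164356 against 48154 to 94661). Of 10 slow fibre markers 0 passed, with a median of 0.26 (13740 to 106352 against 29395 to 48807). The slow fibre sums went the other way from that median, with means of 51819 on control and 36006 on mdx leg arrays. The control value of 13740 was that of leg control 4, and the other leg controls had 45973 to 106352. Endothelial markers had 1 of 10 lower (Flt1) and adipocyte markers 1 of 7 (Lpl), while 0 of 2 nerve and Schwann cell, 0 of 4 red blood cell and 0 of 5 epithelial and gland markers tested passed. Only Tnnc2 of the fast list was under 50 on every leg array, and no gene of the macrophage, matrix, slow fibre, endothelial or regenerating lists was. The part of a changed cell mixture in the falls of the glucose genes was not tested.

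**Figure D4:**
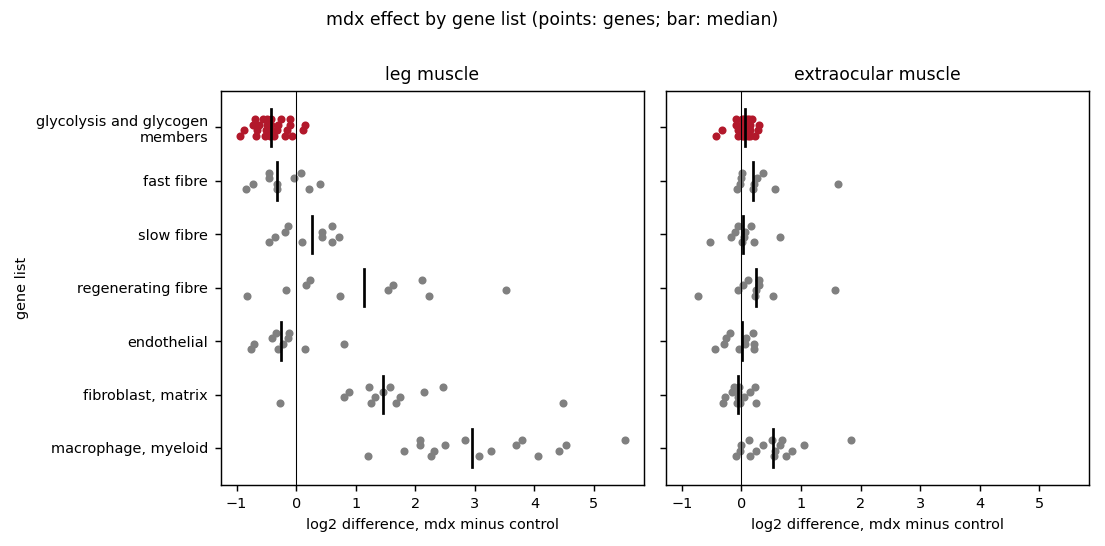
Log2 difference between mdx and control arrays for each tested gene (dots) of the glucose genes and 6 marker lists, with the median as a bar, in leg muscle and in extraocular muscle. In leg muscle the medians run from -0.43 for the glucose genes and -0.32 for fast fibre markers to 2.95 for macrophage markers, and in extraocular muscle from -0.05 to 0.52.

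The 3′ to 5′ ratio of beta-actin, used as a sign of RNA quality, was lower on mdx than on control leg arrays. Its 3′ probe set had a mean of 3677 on mdx and 12537 on control leg arrays. The 5′ probe set had 9951 against 8962, and the middle one 10465 against 8977. The log2 ratio of the 3′ to the 5′ beta-actin control probe set was -1.86 ± 1.25 on mdx and 0.50 ± 0.37 on control leg arrays (SD, n = 5, two-sided exact permutation p = 0.00794, 0.0317 adjusted over 4 comparisons), and 0.17 ± 0.35 against 0.08 ± 0.20 in extraocular muscle (p = 0.651 by the same exact test). The same ratio for Gapdh was -2.50 ± 0.14 against -2.48 ± 0.84 in leg muscle (exact p = 0.929) and -1.27 ± 0.62 against -2.35 ± 0.84 in extraocular muscle (exact p = 0.0714, 0.143 adjusted). These tests compared the ratios, which are only a sign of RNA quality. The part of RNA quality in the falls of the glucose genes was not tested.

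In extraocular muscle 0 of the 27 genes passed between mdx and control, where 0.0833% of all probe sets did, 0.0416% higher and 0.0416% lower. At an unadjusted p under 0.05 it was 1 of 27, against 369 of 7204 probe sets. The median difference of the 27 was 0.05, against -0.02 over all probe sets. That 1 gene was Phkg1, which read 2056, 1777, 1775, 1843 and 2019 in controls and 1631, 1497, 1523, 1396 and 1507 in mdx. These groups did not overlap, which held in this direction for 0.652% of all probe sets, and the difference was -0.33 (95% interval -0.62 to -0.03, adjusted p = 0.955). Fbp2, with the most negative difference of the 27, was at -0.43 (95% interval -0.89 to 0.03). The macrophage marker sum was 8676 to 12346 on control and 9431 to 16995 on mdx extraocular arrays, and 1 of its 16 tested genes, Ctss, rose; Cd53 was under 50 on every extraocular control array. Fibroblast and matrix markers had 0 of 13 passing, with summed signals of 34171 to 56746 and 37037 to 52877.

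Whether the mdx effect differed between the muscles was tested as the difference of the 2 effects. It passed for 2 of 27 genes, both more negative in leg muscle, where 6.22% of all probe sets passed in either direction 1.29% in this one and 4.93% in the other. The difference of effects was -1.04 (SE 0.19, adjusted p = 0.00129) for Hk2 and -0.82 (SE 0.18, adjusted p = 0.0071) for Slc2a4, and both kept their call in every fit without 1 array and in every other setting tried. Next in order of adjusted p, and not passing, were Gyg (-0.72, adjusted p = 0.0553), Gys1 (-0.56, 0.0585), Gpd2 (-0.69, 0.0876) and Ugp2 (-0.57, 0.0976). Without the array extraocular mdx 1 the count was 4, with Gyg and Ugp2 added. For 25 genes the test did not pass, so a fall called in leg muscle alone, such as that of Pfkm (difference of effects -0.58, 95% interval -1.05 to -0.12, adjusted p = 0.146), is not shown to be particular to leg muscle. The mdx contrast of each muscle enters this difference, and the values are not independent of those above. The unlike labels of the control and mdx leg tissue enter it as well.

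Between the muscles of control mice 10 of 27 genes differed: 2 were higher in extraocular muscle (10.3% of all probe sets were) and 8 lower (7.41%), against 17.7% of probe sets in all. The genes lower in extraocular muscle were those of glycogen breakdown (Phka1, Phkg1 and Pygm), of the glycerol phosphate shuttle (Gpd1 and Gpd2), Fbp2, and Gyg and Ppp1r3c of glycogen synthesis. Those higher were Ldhb and Gbe1. Of the genes from Slc2a4 to Pkm, uptake through pyruvate kinase, 0 passed. The slow fibre list had a median of 0.72 in the same comparison, with 2 of 10 higher. Its summed signal was 42972 to 58291 in extraocular and 13740 to 106352 in leg controls, with means of 52671 and 51819. The 13740 was that of leg control 4, and the other leg controls had 45973 to 106352. The fast fibre list had a median of -0.03, with 1 of 10 higher and 1 lower. Higher in extraocular muscle were 7 of 13 fibroblast and matrix markers, both tested nerve and Schwann cell markers and 3 of 16 macrophage markers. The part of fibre types and of these cell types in the differences was not tested.

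Phka1 differed most, reading 2208, 5178, 4637, 2217 and 3516 in control leg muscle and 1063, 696, 716, 664 and 779 in control extraocular muscle. Leg control 1 and 4 were the lowest of their group, and every leg array lay above every extraocular array. The difference, extraocular minus leg, was -2.11 (SE 0.22), or 4.32-fold lower (adjusted p = 5.45e-07). Fbp2 was 3.93-fold lower, with 415, 330, 283, 251 and 200 in extraocular against 934 to 1400 in leg muscle (log2 difference -1.97, SE 0.22, adjusted p = 1.26e-06). Gpd1 was 3.50-fold lower, with 1888, 1424, 1381, 1801 and 1477 against 4594 to 7855 (-1.81, SE 0.14, adjusted p = 6.38e-09). These 3 genes did not overlap between the muscles, nor did Gpd2 (2.08-fold lower), Gyg (1.89-fold) and Phkg1 (1.70-fold); 5.83% of all probe sets were lower without overlap and 7.69% higher, the latter holding for 2 of the 27 genes, Gbe1 and Gys1.

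Ppp1r3c was 2.33-fold lower in extraocular muscle (750 ± 285 against 1710 ± 425, adjusted p = 0.00264), with leg control 1 inside the extraocular range. Pygm was 1.41-fold lower (961 ± 165 against 1365 ± 280, adjusted p = 0.0426), which was lost in 8 of 20 fits that dropped an array and on dropping leg control 1 and 4 together (adjusted p = 0.149). Gbe1, the branching enzyme, was 1.76-fold higher, at 599, 613, 498, 586 and 811 against 297 to 386 without overlap (adjusted p = 0.000531). The glycogen synthesis genes thus did not move as 1 group: Gyg and Ppp1r3c were lower, Gbe1 was higher, Gys1 was at 9427 ± 834 against 7586 ± 715 without overlap but did not pass (log2 difference 0.31, adjusted p = 0.0817), and Ugp2 differed by 0.07 (95% interval -0.22 to 0.36).

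Ldhb read 3304, 3067, 3140, 5108 and 1850 in control extraocular muscle, against 659 to 2362 in control leg muscle. Extraocular control 5 fell below leg control 1, and the gene was 2.39-fold higher in extraocular muscle (log2 difference 1.26, SE 0.27, adjusted p = 0.00215). Ldha read 8632, 12454, 12618, 9220 and 13501 against 1999 to 21288. Its difference of 0.80 (95% interval -0.12 to 1.72) did not pass with all arrays; without leg control 1 and 4, Ldha and Hk2 were added to the genes higher in extraocular muscle and Pygm was lost, 11 calls in all.

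**Figure D5:**
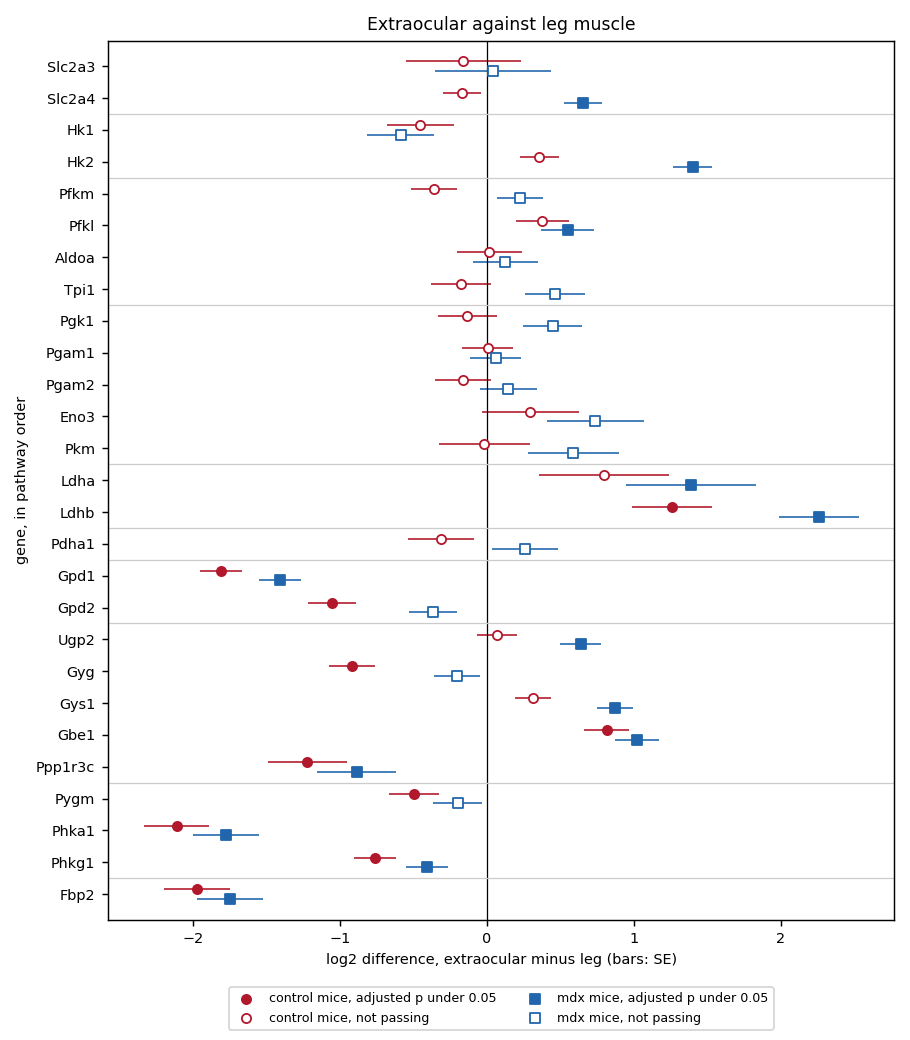
Log2 difference between extraocular and leg muscle for each of the 27 tested genes in pathway order, in control mice (circles) and mdx mice (squares), with bars giving standard errors from limma and filled symbols an adjusted p under 0.05. In control mice 2 genes lie above and 8 below 0 with filled symbols, and in mdx mice 8 and 5.

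In mdx mice 13 of 27 genes differed between the muscles, 8 higher in extraocular muscle (9.24% of all probe sets were) and 5 lower (8.83%), against 18.1% of probe sets in all. The arrays did not overlap for 6 of the higher and 3 of the lower genes, which held for 7.38% and 7.02% of all probe sets. The leg mdx arrays of this comparison are those in which 11 of the genes had fallen against controls, so the 2 results share arrays. Hk2 was 2.64-fold higher in extraocular muscle (log2 difference 1.40, SE 0.13, adjusted p = 1.27e-07), against 1.28-fold in controls, where it did not pass. Slc2a4 was 1.57-fold higher (0.65, adjusted p = 0.000842), against -0.17 in controls. Gys1 was 1.83-fold higher (0.87, adjusted p = 2e-05) and Ugp2 1.55-fold (0.64, adjusted p = 0.00211). The arrays of these 4 genes did not overlap between the muscles. Markers of other cell types differed between the same arrays. All 16 tested macrophage and myeloid markers were lower in mdx extraocular muscle (summed signal of 20 genes 9431 to 16995 against 45058 to 59332 in leg muscle), as were 6 of 13 fibroblast and matrix markers (37037 to 52877 against 67386 to 74838). Higher in extraocular muscle were 5 of 10 endothelial markers (6417 to 8735 against 4374 to 5840), both tested nerve and Schwann cell markers (6102 to 7331 against 1504 to 2747, summed over 7 genes) and 4 of 5 epithelial and gland markers (6318 to 8400 against 1658 to 2368, summed over 11 genes). Regenerating fibre markers had 2 of 10 higher and 5 lower, fast fibre markers 2 of 10 higher and 2 lower (median 0.58), slow fibre markers 2 of 10 higher (median 0.63), red blood cell markers 2 of 4 higher and adipocyte markers 1 of 7 higher. Tnnc2 of the fast fibre list was under 50 on all arrays of both groups, and Nefm, Epb42 and Krt19 of the nerve, red blood cell and epithelial lists on all mdx leg arrays. Their part in the differences of the glucose genes was not tested. That the muscles differed otherwise in mdx than in control mice is the same test as the difference of the mdx effects, and passed for Hk2 and Slc2a4 alone.

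Both lactate dehydrogenase subunits were higher in mdx extraocular than in mdx leg muscle. Ldhb read 4767, 3160, 3139, 3476 and 2870 against 520 to 1018 without overlap, a 4.78-fold difference (log2 2.26, SE 0.27, adjusted p = 2.59e-06). Ldha read 17250, 12481, 12974, 8216 and 13374 against 2882 to 10493, a 2.62-fold difference close to the threshold (1.39, SE 0.44, adjusted p = 0.032), with the call lost in 7 of the 20 fits without 1 array. Gbe1 was 2.03-fold higher (adjusted p = 3.9e-05). Pfkl was 1.46-fold higher (adjusted p = 0.0365, lost in 5 of the 20 fits).

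The genes lower in mdx extraocular muscle were all among those lower in controls. Phka1 was 3.42-fold lower (734 ± 110 against 2557 ± 622, adjusted p = 5.13e-06), Fbp2 3.36-fold (218 ± 49.8 against 743 ± 208, adjusted p = 5.87e-06) and Gpd1 2.66-fold (1501 ± 187 against 3984 ± 443, adjusted p = 2.73e-07), each without overlap. Ppp1r3c was 1.85-fold lower (adjusted p = 0.024), lost in 3 of the 20 fits. Phkg1 was 1.33-fold lower at the threshold itself (adjusted p = 0.0494), and 17 of the 20 fits without 1 array lost it. Gpd2, Gyg and Pygm, lower in control extraocular muscle, differed by -0.36, -0.20 and -0.20 in mdx mice and did not pass. Over the 4 groups, leg mdx had the lowest mean signal for 16 of the 27 genes and leg control the highest for 15. The share over all probe sets was not computed, and these counts restate the comparisons above on the same arrays.

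Neighbouring genes of glucose metabolism, from lists that are not part of the 36, were read in the leg comparison. Of all probe sets tested there, 10.7% rose and 7.15% fell. Of 6 tested genes of pyruvate dehydrogenase and its control, 1 rose and 0 fell: Pdk3, a kinase that switches the complex off, read 41.7 ± 19.6 in control and 234 ± 53.9 in mdx leg muscle, at least 2.11 higher in log2 since 3 of the 20 arrays lay under the floor of 50 (adjusted p = 2.36e-05). Of 9 other glycogen genes, 2 rose and 1 fell: Stbd1, which ties glycogen to membranes (log2 difference 0.88, adjusted p = 0.0101), Phkg2, the liver and testis subunit of phosphorylase kinase (0.62, at the threshold with an adjusted p of 0.04997), and the phosphatase subunit Ppp1cb (-0.35, adjusted p = 0.0234). Phkg2 also passed the difference of mdx effects (1.23, adjusted p = 0.0175), in the direction opposite to Hk2 and Slc2a4.

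Of 8 other glycolysis genes 2 fell, Bpgm, which makes the red cell effector 2,3-bisphosphoglycerate (log2 difference -0.57, adjusted p = 0.00762), and Galt of galactose use (-0.46, adjusted p = 0.0242). Of 7 pentose phosphate genes 2 rose and 1 fell. Tkt, transketolase, went from 249 ± 166 to 805 ± 184 (1.96, adjusted p = 0.00101) and Pgd, 6-phosphogluconate dehydrogenase, from 638 ± 56.9 to 946 ± 185 (0.55, adjusted p = 0.021), while Rpia, ribose phosphate isomerase, fell (-0.38, adjusted p = 0.028). The macrophage and matrix markers given above rose on the same arrays, and their part in these changes was not tested. The 3 tested genes of the malate-aspartate shuttle, the other route for cytosolic electrons, did not pass.

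Among 8 tested genes of insulin and AMPK signalling, Akt1, an insulin-activated kinase, rose (log2 difference 0.50, adjusted p = 0.00644) and Irs2, an adaptor of the insulin receptor, fell (-1.23, adjusted p = 0.0226). Of 17 transcription factors 1 rose and 4 fell. Hif1a, the oxygen-regulated factor that activates many glycolysis genes, went from 1342 ± 289 to 3028 ± 671 (1.18, adjusted p = 6.73e-05), and its mdx effect differed from that in extraocular muscle (1.24, adjusted p = 0.00501). Those that fell were Esrra, the oestrogen-related receptor of mitochondrial and fuel genes (-0.61, adjusted p = 0.00357), Six4 (-0.77, adjusted p = 0.0145), a homeodomain factor of muscle, Ppara of fatty acid use (-0.54, adjusted p = 0.0246) and the nuclear receptor Nr4a1 (-0.49, adjusted p = 0.0476). Macrophage and matrix markers rose on the same leg arrays, and their part in the changes of these signalling genes and factors was not tested. In extraocular muscle 0 genes of these 7 lists passed between mdx and control, where 0.0833% of all probe sets did.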

How the data were processed

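Total RNA of 20 muscle samples was measured on one-colour Affymetrix arrays. Intensities, deposited by the authors on a linear scale, were used per probe set; what software summarised them is not stated in the labels or files used, and every array had a trimmed mean (2% off each end) of 1500.1. Gene symbols came from the platform annotation, matched to RefSeq (31 of 31). Each array was scaled to a trimmed mean of 500 over 12588 non-control probe sets; values under 50 were set to 50 and log2 taken, so folds of dim genes are understated. The 7204 probe sets at 200 or more on at least 5 arrays were fitted with limma 3.58.1 (R 4.3.3; lmFit, eBayes with trend, 4 groups, 16 residual degrees of freedom), with Benjamini-Hochberg adjustment per contrast at 5%; the script was tested on simulated data. Signals are means ± SD before the floor.

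Every listed gene is named, with up to 4 passing genes per other list and contrast. The genes and lists were chosen with earlier results of these data known. Promoters were printed for isoform pairs with a passing member, of which the hexokinase and lactate dehydrogenase pairs are shown. The number of arrays limits the precision. Alternatives were the deposited scale, quantile normalization, other floors, a pseudocount, other filters, array weights, no trend, a replicate block, fits on only the groups compared, averaged probe sets per gene, no leg control 1 and 4, and leaving out each array. The main fit did not pair arrays by replicate number.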

Additional observations from a re-analysis of the deposited data

Results flagged for a closer look

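Of 108 pairs of gene and group, 3 held an array far from the other 4 by Dixon's criterion, which chance exceeds in about 1 group of 20. Aldoa read 437 on leg mdx 4, against 818 to 977 on the others, and 1218 on extraocular mdx 4, against 710 to 806. Ppp1r3c read 417 on extraocular mdx 2, against 747 to 943.

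The mdx effect differed between the muscles for Slc2a4 (leg minus extraocular -0.82, limma adjusted p = 0.0071) and Hk2 (-1.04, limma adjusted p = 0.00129). For both genes the 5 mdx leg arrays lay below the 5 leg controls while the extraocular groups overlapped.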

How the results depend on the processing

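Over 36 called gene results and 1188 alternative values, 1105 kept direction and call, 83 lost the call and 0 reversed. Many of these values had little or no room to change. Leaving out an array of a group outside a contrast keeps its difference and alters only the shared spread and the adjusted p. The deposited scale was nearly a constant multiple of the main scale, since every array had a trimmed mean of 1500.1. Leaving out 1 array at a time gave 7 to 11 calls between mdx and control in leg muscle, 0 throughout in extraocular muscle, 2 to 4 for the difference of effects, 9 to 11 between the muscles in control mice and 9 to 13 in mdx mice. A filter at 500 raised the difference of effects from 2 to 4 genes, adding Gyg and Gys1, with fewer probe sets tested. Whether equal replicate numbers mark paired samples is not known. Same-numbered arrays of leg control and leg mdx had a mean correlation of deviations of 0.10, against -0.02 for other numbers. For extraocular control and mdx the means were also 0.10 and -0.02. In each muscle 3 of 5 control arrays correlated best with the mdx array of their own number. Between leg and extraocular groups the same-number means were 0.0046 to 0.015. With the replicate block the 5 counts were 11, 0, 2, 10 and 12 against 11, 0, 2, 10 and 13 without it. Quantile normalization ended the leg calls of Gpd1 and Gys1 (adjusted p up to 0.0625), and no filter those of Ldhb and Fbp2. The causes were not tested. Genes near background, such as Slc2a1 and Pfkp, could not be tested at this signal.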
